A study of Homo sapiens with 3 samples.

Results

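The genes described here are the 4 nuclear factor I genes NFIA, NFIB, NFIC and NFIX, together with 6 genes used as markers of radial glia and astrocytes: FABP7, HOPX, AQP4, S100B, ALDH1L1 and GFAP. They were taken by symbol from gene tables of 62754 genes, and all 10 were found. The tables hold polyadenylated RNA of wild-type primitive neural progenitor cells (pNPCs), an early, dividing neural stage, in 3 replicates that form the only group. Their source was H1, an established embryonic stem cell line of human origin, and the labels name no engineered allele. All libraries share 1 culture condition: a neurobasal and DMEM/F12 medium with N2 and B27-RA supplements, FGF2 at 20 ng/ml, the GSK3 inhibitor CHIR99021 at 3 µM, human leukemia inhibitory factor (LIF) at 10 ng/ml, the TGF-beta receptor inhibitor SB431542 at 2 µM and the ROCK inhibitor Y-27632 at 10 µM. There is thus no later stage, other line or other medium in the series against which a level could be set.

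NFI proteins are transcription factors that bind DNA as dimers of any 2 family members. In the developing central nervous system NFIA and NFIB are known to come on when progenitors that first made neurons gain the ability to make astrocytes, acting with SOX9, and NFIA acts on the GFAP gene. FABP7 is a marker of radial glia and of immature glia and a known target of NOTCH signalling, HOPX marks a later class of radial glia, and AQP4, ALDH1L1, S100B and GFAP are usually read as markers of maturing or mature astrocytes.

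Depth was 34658454, 38400092 and 30038114 expected counts in replicates 1, 2 and 3. No label ties the replicates to separate cultures. Levels are in TPM, a transcript abundance that corrects for transcript length and library size and so allows levels of different genes to be compared. A gene is called detected at a TPM of at least 1 in all 3 libraries. The neural label is met by some defining markers and not by others: in the list of other radial glia genes 11 of 12 were detected, with SOX2 at 97.8, 46.3 and 63.4 TPM, while PAX6 had 0.13, 0.81 and 0.38 TPM. Markers of other cell types were present as well, with 9 of 9 mesenchyme and fibroblast genes, 9 of 10 neural crest and Schwann precursor genes and 9 of 9 neuron genes detected, against 2 of 8 for the oligodendrocyte lineage and 2 of 6 for pluripotent cells. The share detected among all protein-coding genes was 62.2%. In bulk RNA, fewer cells of a type and less RNA per cell cannot be told apart, and no level below can be assigned to a cell type.

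Of the 10 genes, 5 were detected: NFIA, NFIB, NFIC, FABP7 and S100B. Among all protein-coding genes 62.2% were detected by the same rule (12354 of 19855). The median of the 10 genes was 1.02 ± 0.39 log2(TPM + 1) (mean ± SD over libraries, n = 3), against 2.86 ± 0.18 for all protein-coding genes. By mean TPM the order was FABP7, S100B, NFIA, NFIC, NFIB, NFIX, GFAP, ALDH1L1, AQP4 and HOPX. The libraries of neighbours in this order did not overlap for FABP7 over S100B, S100B over NFIA, NFIA over NFIC or NFIC over NFIB. The step from NFIA to NFIC was narrow, with a lowest NFIA value of 6.60 and a highest NFIC value of 6.35 TPM. The values of NFIB and NFIX overlapped between libraries, but NFIB was the higher within each of the 3. NFIX and GFAP, and GFAP and ALDH1L1, overlapped and changed places between libraries, so the order among these does not exceed the spread. ALDH1L1 and AQP4 did not overlap (lowest 0.14 and highest 0.11 TPM), but these values rest on 3 and 5 counts.

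**Figure D1:**
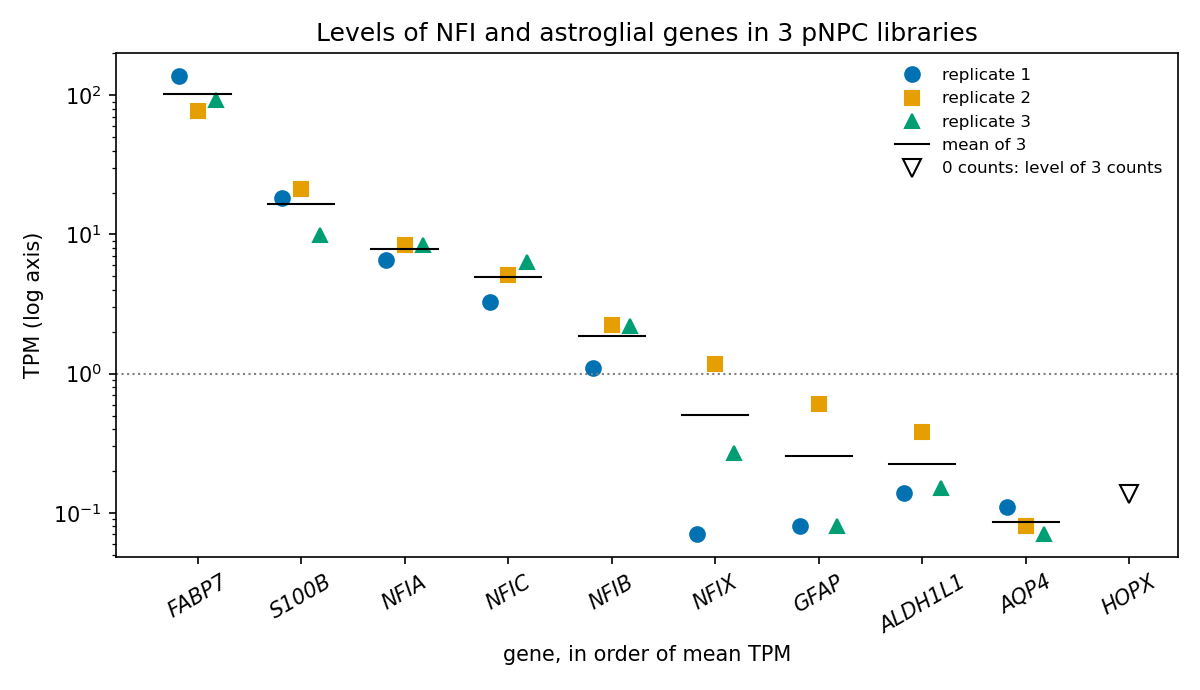
TPM of each of the 10 genes in each library on a log axis, with points for replicates 1, 2 and 3, a black bar for their mean and a dotted line at 1 TPM. FABP7, S100B, NFIA, NFIC and NFIB lie above 1 TPM in all 3 libraries, and HOPX, with 0 counts, is drawn as an open triangle at the level that 3 counts would have had (0.138 TPM).

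The 4 NFI genes are long and have many annotated transcripts. NFIA (ENSG00000162599.18, chr1:61077227-61462788 on the plus strand of GRCh38) has 31 transcripts in the files, NFIB (ENSG00000147862.18, chr9:14081843-14532077, minus strand) 22, NFIC (ENSG00000141905.19, chr19:3359630-3469217, plus strand) 11 and NFIX (ENSG00000008441.19, chr19:12995475-13098796, plus strand) 17. Counts are estimates over all transcripts of a gene, and no transcript was read separately. The RefSeq tables for GRCh38.p14 hold start sites for 8 of the 10 genes, with 27 windows of 250 bases before a start. The 2 windows below show the first listed start of NFIA and of NFIX, the detected and the undetected end of the NFI order, and neither overlaps an exon of GENCODE release 29. They are given from 5′ to 3′ on the gene's strand, with each CG dinucleotide in capitals.
NFIA, chr1:61076977-61077226, plus strand: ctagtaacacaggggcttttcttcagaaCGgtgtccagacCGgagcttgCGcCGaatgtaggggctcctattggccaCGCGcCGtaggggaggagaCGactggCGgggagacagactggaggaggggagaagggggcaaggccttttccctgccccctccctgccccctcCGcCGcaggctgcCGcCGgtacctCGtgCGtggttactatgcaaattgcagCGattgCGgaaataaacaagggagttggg
NFIX, chr19:12995225-12995474, plus strand: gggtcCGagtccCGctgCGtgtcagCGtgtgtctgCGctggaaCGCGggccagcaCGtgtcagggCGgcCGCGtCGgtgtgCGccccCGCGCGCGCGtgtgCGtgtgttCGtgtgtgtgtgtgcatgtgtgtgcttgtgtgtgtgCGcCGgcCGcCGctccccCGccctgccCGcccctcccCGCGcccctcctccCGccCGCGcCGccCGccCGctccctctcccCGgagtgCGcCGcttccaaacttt
The NFIA window has 17 CG dinucleotides and the NFIX window 37, against a median of 17 over 21558 windows of protein-coding genes. Windows of detected genes had a median of 20 and windows of undetected genes a median of 5. Each NFI gene had at least 1 start with a dense window, with up to 38 CG in NFIA, 40 in NFIB, 41 in NFIC and 37 in NFIX. NFIX was thus below detection with a window nearly as dense as the densest of its detected relatives. The single FABP7 window has 5 CG, the HOPX windows 8 and 9, the AQP4 windows 1 to 4 and the ALDH1L1 windows 9 and 20. FABP7, at the top of the order of levels, sits with the sparse windows. Its only window, chr6:122779466-122779715, lies within the gene's span, which starts at 122749201, so the outermost start has no window. The outermost starts of HOPX and ALDH1L1 have none either, so the windows do not cover all starts of these genes.

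The NFI palindrome, TTGGC and GCCAA with any 5 bases between them and so the same on both strands, was in 0 of the 27 windows and in 0.0278% of all windows. The half-site TTGGC, read as TTGGC or GCCAA for the 2 strands, was in 12 of the 27 windows and in 42.0% of all windows. The 27 windows are not independent: some overlap, and NFIB alone has 10 of them and 6 of the 12 with a half-site. The printed NFIA window holds 1 half-site and the printed NFIX window 0. The palindrome contains 2 half-sites, so the searches overlap. A match is a description of the letters, not a binding site.

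NFIA, the paralog most closely tied to the onset of gliogenesis, took the largest share of the family in each library. It stood at 6.60, 8.42 and 8.45 TPM in replicates 1, 2 and 3, from 972, 1293 and 1144 counts. Replicate 1 was the lowest and the other libraries were close to each other. Poisson 95% intervals, which cover counting error only, as all intervals and floors here do, were 6.19 to 7.03, 7.97 to 8.89 and 7.97 to 8.95 TPM. NFIA lay at percentile 52.4 of protein-coding genes by mean TPM, near the middle.

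NFIC, a paralog best known from tooth root development and broadly transcribed, stood at 3.28, 5.12 and 6.35 TPM (267, 371 and 350 counts). NFIB, which acts with NFIA in glial development, stood at 1.10, 2.25 and 2.21 TPM (157, 312 and 295 counts). Both were lowest in replicate 1. In replicate 1 NFIB was just above the detection rule, with a Poisson 95% interval of 0.935 to 1.29 TPM that spans the minimum of 1. NFIB was lost from the detected genes when a minimum of 1 was set in FPKM, the other length-scaled unit of the tables, which left 4 detected genes.

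NFIX, known for its role in later progenitors and adult neural stem cells, was not detected, with 0.07, 1.17 and 0.27 TPM from 7, 26 and 7 counts. Replicate 2 was the highest of the 3 and alone reached 1 TPM. The highest value was 16.7 times the lowest in TPM, but 3.35 times in CPM, which scales counts for library size and ignores length. The gap lies largely in the length by which TPM divides, and the lowest TPM, 0.07, is a rounded value. RSEM, the program that made the tables, weights a gene's length by the transcripts it assigns reads to. For NFIX this length was 3957 bases in replicate 1, 1091 in replicate 2 and 1561 in replicate 3. TPM divides by the effective length, a shorter value derived from it, which was 3741, 853 and 1302 bases in replicates 1, 2 and 3. Among 1360 protein-coding genes with a mean count of 5 to 20, the median ratio of longest to shortest length was 1.20, and 3.09% of them reached the 3.63 of NFIX. With 1 fixed length per gene, the mean over libraries (a choice made after the data were seen), NFIX stood at 0.134, 0.519 and 0.181 TPM. Its mean of 0.50 TPM fell to 0.17 TPM without replicate 2.

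**Figure D2:**
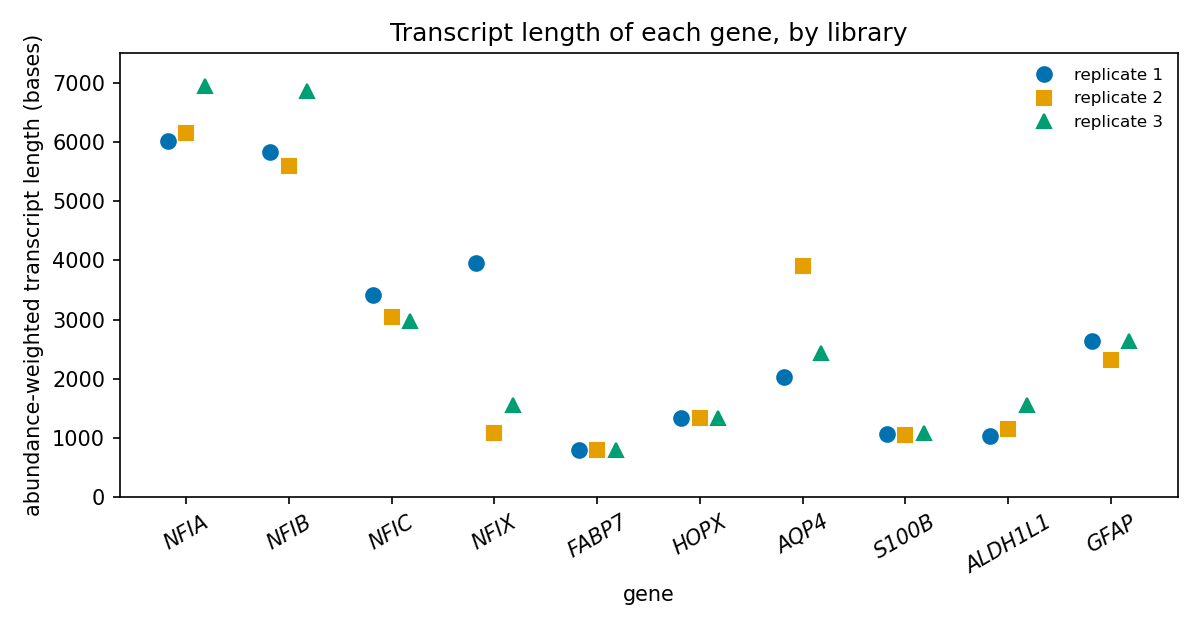
Abundance-weighted transcript length of each gene in bases, by library, with points for replicates 1, 2 and 3. NFIX ranges from 1091 to 3957 bases and AQP4 from 2036 to 3912, both on few counts, while FABP7 and S100B keep nearly the same length in all libraries, and HOPX, with 0 counts, has no abundance to weight by.

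Summed over the 4 genes, NFI transcripts reached 11.1, 17.0 and 17.3 TPM in replicates 1, 2 and 3. NFIA made up 59.7%, 49.6% and 48.9% of this sum, a mean of 52.8 ± 6.05% (SD, n = 3). NFIC followed with 29.7%, 30.2% and 36.7% (mean 32.2 ± 3.94%), NFIB with 9.95%, 13.3% and 12.8% (mean 12.004 ± 1.79%) and NFIX with 0.633%, 6.90% and 1.56% (mean 3.03 ± 3.38%). The order NFIA, NFIC, NFIB, NFIX held in all 3 libraries.

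Which share each gene has depends on the scale. In reads, without correction for length, NFIA had 69.3% (exact binomial 95% interval 66.8 to 71.7), 64.6% (62.4 to 66.7) and 63.7% (61.4 to 65.9) of the NFI counts. NFIC, whose transcripts are shorter, fell to a mean of 19.0%, and NFIB had 14.4%. NFIX had 0.499%, 1.299% and 0.390% of the NFI counts, with intervals of 0.201 to 1.03, 0.850 to 1.90 and 0.157 to 0.801. With 1 fixed length per gene the mean shares were 53.4% for NFIA, 32.5% for NFIC, 12.2% for NFIB and 1.84% for NFIX. The NFIA share of replicate 1 then stood closer to the other libraries, at 56.5% against 52.1% and 51.7%.

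**Figure D3:**
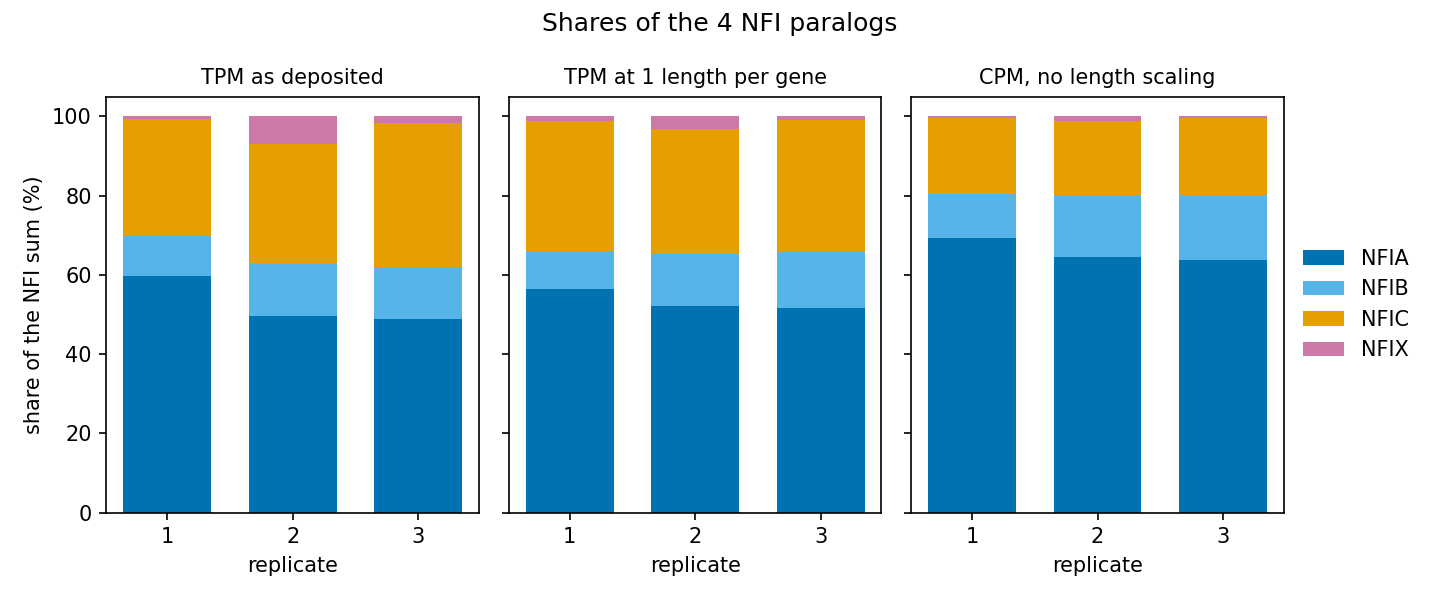
Share of each NFI paralog in the family sum, in percent, as stacked bars for replicates 1, 2 and 3, from the deposited TPM, from TPM with 1 length per gene and from CPM. NFIA is the largest part of every bar, from 48.9% to 69.3%, and the NFIC part is smaller in CPM than in TPM.

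Each of the 6 pairs of paralogs was compared within libraries, as a difference of log2(TPM + 1) over the 3 libraries. NFIA exceeded NFIC by 0.60 ± 0.23, NFIB by 1.65 ± 0.18 and NFIX by 2.61 ± 0.43 (SD, n = 3). NFIC exceeded NFIX by 2.01 ± 0.52, NFIB exceeded NFIX by 0.96 ± 0.38, and NFIB minus NFIC was -1.05 ± 0.14. All 6 differences had the same sign in 3 of 3 libraries. A sign-flip permutation test, exact and two-sided, gave p = 0.25 for each, the smallest that 3 libraries allow (Benjamini-Hochberg adjusted 0.25 over the 6), so none could pass 0.05.

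FABP7 (ENSG00000164434.12, chr6:122749201-122784074, plus strand), a fatty acid binding protein also called brain lipid-binding protein, was the highest of the 10 genes. It stood at 138, 77.4 and 92.6 TPM, from 2029, 1087 and 1012 counts. Replicate 1 was the highest and replicate 2 the lowest, and their Poisson 95% intervals of 132 to 144 and 72.8 to 82.1 TPM do not meet. Its mean of 103 ± 31.3 TPM (SD, n = 3) lay at percentile 92.9 of protein-coding genes, rank 1403 of 19855. Among the 10 genes of the FABP family FABP7 ranked second. FABP5, a relative with a wide tissue range, stood at 252, 278 and 256 TPM and was higher in 3 of 3 libraries, and FABP3 was detected at 6.12 ± 1.37 TPM. The other 7 relatives, among them the myelin gene PMP2 and the fat cell gene FABP4, were below 1 TPM. FABP7 made up 34.6%, 21.3% and 26.2% of the family's TPM.

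S100B (ENSG00000160307.10, chr21:46598604-46605082, minus strand), a calcium-binding protein of astrocytes and also of Schwann cells, melanocytes and cartilage, was the only other astroglial marker detected. It stood at 18.3, 21.1 and 9.93 TPM, from 395, 443 and 167 counts. Replicate 3 was the low one, with a Poisson 95% interval of 8.48 to 11.6 TPM that stayed below the 16.5 to 20.2 TPM of replicate 1. Within the S100 family of 18 genes it had rank 5 and made up 2.25 ± 0.72% of the TPM, behind S100A11 at 391 ± 106, S100A13 at 194 ± 20.5, S100A10 at 79.7 ± 21.3 and S100A4 at 37.4 ± 17.1 TPM. S100A10 and S100A4 were also lowest in replicate 3, at 57.3 and 20.2 TPM, whereas S100A11 (297, 506 and 368 TPM) and S100A13 (173, 214 and 197 TPM) were lowest in replicate 1. S100A16, S100A1 and S100A3 were detected at 4.67, 3.13 and 3.02 TPM.

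Markers of the other cell types that use S100B were detected to different extents, beside the 62.2% of all protein-coding genes. Of 10 neural crest and Schwann precursor genes, led by TFAP2B, TFAP2A and NGFR, 9 were detected with a summed level of 232, 270 and 243 TPM, and 0 of the 10 were at 0 in all libraries. Of 5 melanocyte genes 3 were detected, a share near that of all genes: PMEL, DCT and MITF, with a summed level of 60.9, 37.1 and 22.3 TPM that was lowest in replicate 3, as S100B was. PMEL and DCT passed the test of excess spread described below, beside 1.59% of all genes tested. DCT was not called without replicate 1, 2 or 3, and PMEL was not called without replicate 3. Of 6 cartilage genes 5 were detected, led by COL2A1, COL9A1 and SOX5, with a summed level of 301, 482 and 448 TPM. Of 8 oligodendrocyte lineage genes 2 were detected, CNP and CSPG4, with a summed level of 97.5, 90.8 and 88.0 TPM, and NKX2-2 had 0 counts. The part of these cells in the S100B level was not tested.

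**Figure D4:**
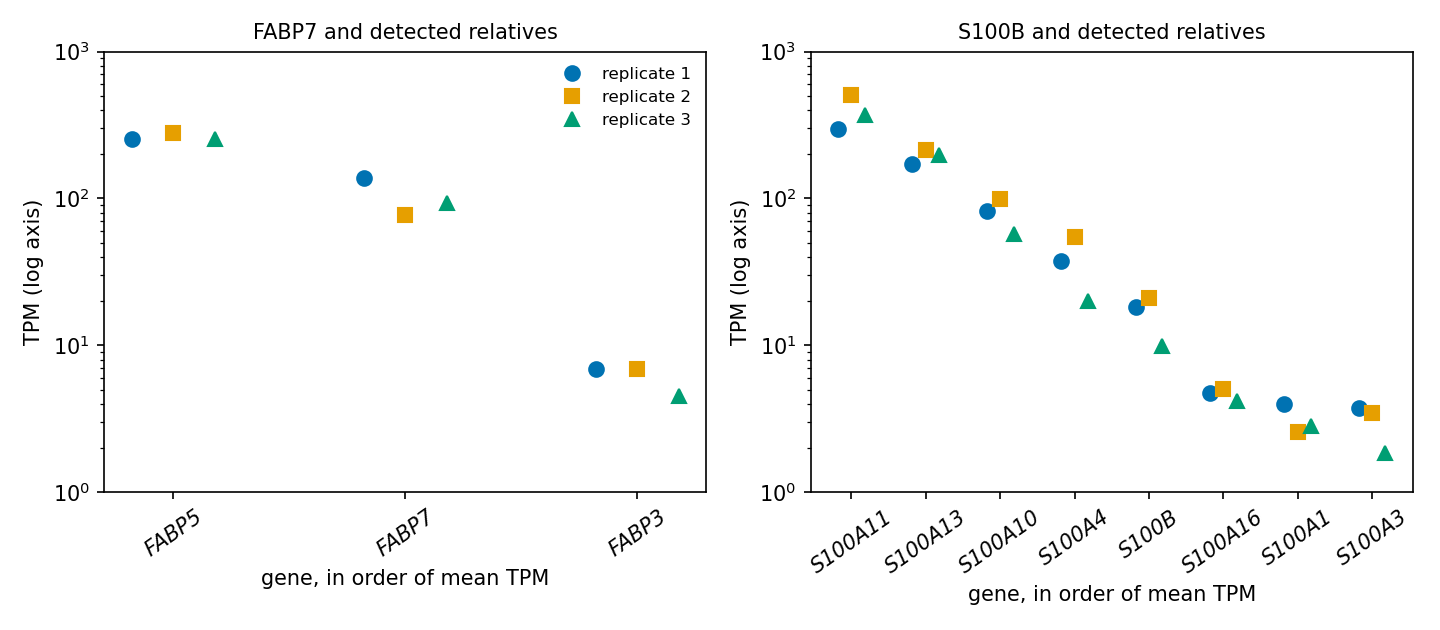
TPM on a log axis of FABP7 and S100B beside the detected members of their families, with points for replicates 1, 2 and 3, in order of mean TPM. FABP7 lies between FABP5 and FABP3, and S100B has rank 5 among the S100 genes, lowest in replicate 3 as are S100A10 and S100A4, while S100A11 and S100A13 are lowest in replicate 1.

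The remaining astroglial markers were at or near the floor. HOPX (ENSG00000171476.23, chr4:56647998-56681706, minus strand), a small homeodomain protein, was without a count in any of the 3 libraries. A floor of 3 counts puts its limit at 0.138 TPM in the library where that is highest. Among protein-coding genes 12.2% had 0 counts in all libraries. AQP4 (ENSG00000171885.18, chr18:26852038-26865803, minus strand), the water channel of astrocyte endfeet, had 0.11, 0.08 and 0.07 TPM from 5, 8 and 3 counts, with Poisson 95% intervals that overlap. AQP1 was the only detected member of the 14 aquaporins, at 1.74 ± 0.32 TPM.

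ALDH1L1 (ENSG00000144908.14, chr3:126103570-126197945, minus strand), a folate enzyme of astrocytes, had 0.14, 0.38 and 0.15 TPM from 3, 9 and 4 counts. It ranked sixth of the 6 ALDH1 genes. ALDH1B1 and ALDH1A3 were detected at 18.1 ± 1.96 and 6.04 ± 1.53 TPM, and ALDH1L2, the mitochondrial relative of ALDH1L1, had 0.89, 2.34 and 2.71 TPM. ALDH1L2 passed the test for excess spread described below, with its low value in replicate 1 (edgeR, Benjamini-Hochberg adjusted p = 0.0364). The call ended when the length trend was removed (adjusted p = 0.161), with no filter on low counts (0.0522) and without replicate 1, 2 or 3 (0.9999, 0.125 and 0.288).

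GFAP (ENSG00000131095.14, chr17:44903159-44915500, minus strand), the intermediate filament of astrocytes, had 0.08, 0.61 and 0.08 TPM from 5, 32.78 and 4 counts. Replicate 2 stood apart, with a Poisson 95% interval of 0.419 to 0.858 TPM against 0.0260 to 0.187 in replicate 1. Without replicate 2 the mean fell from 0.26 to 0.08 TPM. The replicate 2 count is the only one among the 30 counts of the 10 genes that is not whole, which shows that reads were divided with another gene. GFAP exons overlap those of CCDC103 on the opposite strand. CCDC103 had 224, 245.22 and 139 counts, and the 2 counts of replicate 2 add up to 278, a whole number. The sources used here do not say whether the libraries kept strand, so the GFAP value of replicate 2 is uncertain. Vimentin, the filament gene of progenitors in the same type III class, was the highest of the 4 type III genes, and GFAP, the lowest, took 0.00419%, 0.0288% and 0.00462% of their TPM. DES and PRPH were detected at 4.75 ± 0.62 and 3.24 ± 1.16 TPM.

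Whether a gene varied between the replicates more than genes of its level was tested over 17046 genes in edgeR, and 1.59% of them passed at a Benjamini-Hochberg adjusted p under 0.05 (271 genes). Of the 5 genes of this family and marker set that had enough counts to be tested, 0 passed. Without adjustment 1 of the 5, FABP7, was under 0.05 (edgeR, Benjamini-Hochberg adjusted p = 0.278). Over all genes tested 7.35% were under 0.05 without adjustment (1253 of 17046). With the dispersion trend of DESeq2 it was 0 of 5 adjusted and 2 of 5 unadjusted, FABP7 and S100B, against 6.84% of all genes (1166). With a common dispersion, or without replicate 1, S100B alone was under 0.05 unadjusted, and without replicate 2 none of the 5 was. The shares of all genes tested in these settings were 8.45%, 4.96% and 5.36%. S100B had an edgeR adjusted p of 0.881, and NFIA, NFIB and NFIC each had 0.9999. NFIX, HOPX, AQP4, ALDH1L1 and GFAP had too few counts for the test. On simulated data with 16924 genes tested, the procedure recovered 2% of genes changed 2-fold in 1 library and 72% of those changed 4-fold. The differences of FABP7 and S100B between libraries were 2.07 and 2.08 times in CPM from lowest to highest, near the 2-fold change seldom recovered there. The simulation raised 1 library around a common mean, without a trend on length, so recovery for these genes may differ.

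Replicate 1 stood apart from the other libraries by transcript length. In log2 CPM its deviation from the mean of the others was -0.34 for NFIA, -0.95 for NFIB and -0.44 for NFIC, all below it, and 0.94 for FABP7, above it. S100B was at 0.52 in replicate 1, 0.54 in replicate 2 and -1.06 in replicate 3. Replicate 1 was the lowest library for 41.1% of all genes tested, but for 78.9% of the 2181 genes with a mean length of at least 5000 bases, to which NFIA and NFIB belong. It was the highest library for 40.8% of all genes, and for 65.4% of the 2163 genes with a mean length of at most 1100 bases, to which FABP7 and S100B belong. These length limits were set after the data were seen. When a smooth trend of counts on length was removed in each library, the replicate 1 deviation of NFIA changed sign, to 0.13. That of NFIB shrank to -0.52, that of NFIC was -0.37 and that of FABP7 was 0.67. The replicate 1 value of NFIA was thus lowest only on the scale that keeps the length trend.

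**Figure D5:**
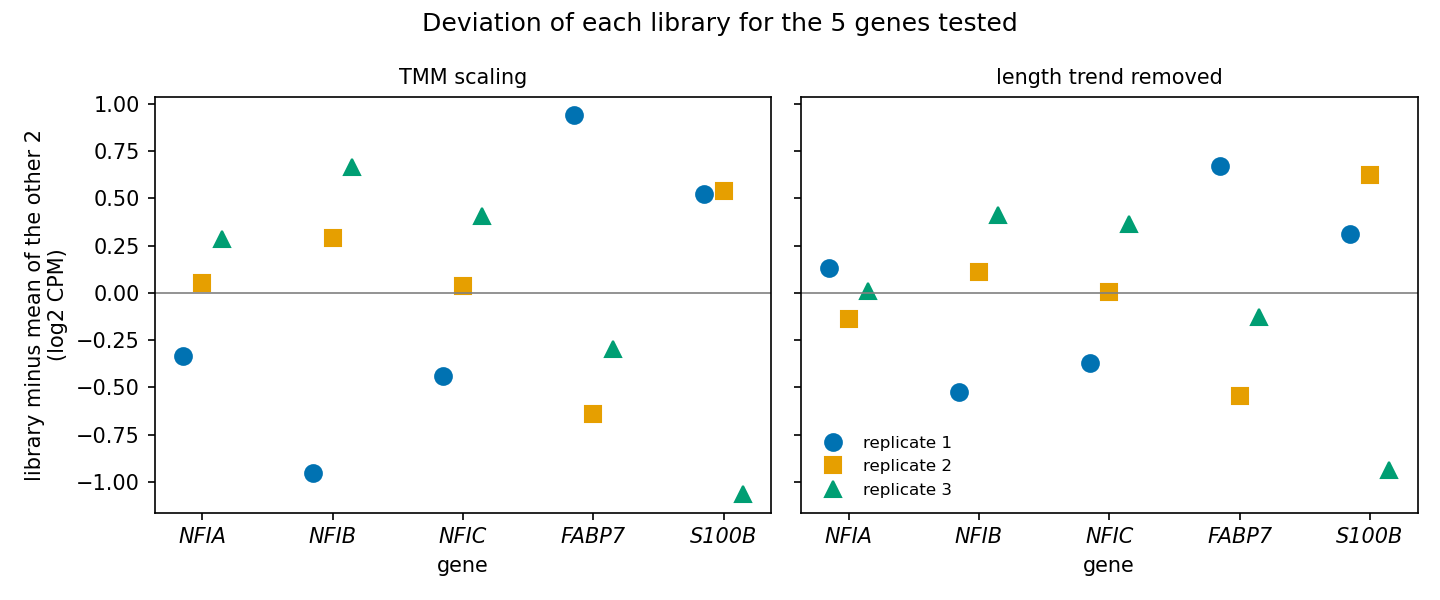
Log2 CPM of each library minus the mean of the other 2, for the 5 genes tested, with points for replicates 1, 2 and 3, after TMM scaling (left) and with the trend on transcript length also removed (right). On the left replicate 1 is lowest for NFIA, NFIB and NFIC and highest for FABP7, and on the right the NFIA points draw together and the replicate 1 point lies at 0.13.

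Other markers moved with replicate 1. The summed TPM of 9 neuron genes was 1077, 626 and 569 in replicates 1, 2 and 3, high in replicate 1 as FABP7 was. NEFM and TUBB3 made up most of it. Of the 9 genes 8 had their highest TPM in replicate 1, and DCX, at 4.61, 3.28 and 6.96 TPM, had it in replicate 3. Of these genes NEFM, STMN2 and ELAVL4 passed the test of excess spread, beside 1.59% of all genes tested, and none was at 0. Each of them lost the call without replicate 1 and also without replicate 2. That of 9 mesenchyme genes was 667, 1408 and 991, low in replicate 1 as the NFI genes were in TPM. For NFIA this held only on the scale that keeps the length trend. Of the 9 genes 8 had their lowest TPM in replicate 1, and COL3A1, at 79.6, 111 and 59.5 TPM, had it in replicate 3. Of these genes PDGFRA and COL1A1 passed the test, beside the same 1.59%, and again none was at 0. PDGFRA was not called without replicate 1, and COL1A1 was not called without replicate 2. Other lists moved with replicate 1 too. Of 15 LIF pathway genes, described below, 13 had their lowest TPM in it, as had 5 of 6 cartilage genes. Of 5 melanocyte genes 4 had their highest TPM in it. In log2 CPM replicate 1 was highest for 40.8% and lowest for 41.1% of all genes tested. These shares are not in TPM, the unit of the list counts above. In log2(TPM + 1) the median of all protein-coding genes was itself lowest in replicate 1, at 2.66, against 2.93 and 2.99 in replicates 2 and 3. A lowest TPM in replicate 1 is thus not particular to these lists. The part of neurons and mesenchyme in the FABP7 and NFI values was not tested.

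The 3 protein-coding genes of at least 10 TPM with the most similar pattern over the 3 libraries were named for each detected gene, by the distance between centred log2 CPM values. With only 3 libraries such likeness is common. NFIA had 361 of 8774 genes within a distance of 0.1, the closest being USP40, CEP57L1 and MICAL1. NFIC had 168, with CEP95, TSTD1 and PRR12 the closest, and NFIB had 43, with TRAF5, BDP1 and NCOA2. FABP7 had 12 of 8773, the closest being VWA1, SCHIP1 and ANTKMT. S100B had 1, MUSTN1 at a distance of 0.053, followed by its relative S100A10 at 0.19 and by PLEKHF1.

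The genes known to act around the NFI factors were mostly present. Of 12 factors of the gliogenic switch 10 were detected, beside 62.2% of all protein-coding genes, with a list median of 3.55 ± 0.24 log2(TPM + 1). The highest were the nuclear receptor gene NR2F1 at 177 ± 17.4 TPM, SOX9, the partner of NFIA, at 48.2 ± 7.55 TPM and NR2F2 at 42.6 ± 5.34 TPM. SOX9 was thus above NFIA in 3 of 3 libraries (40.1 against 6.60, 55.1 against 8.42 and 49.4 against 8.45 TPM). All 12 had enough counts for the test of excess spread, and 2 passed, the NOTCH targets HES1 and HES5, beside 1.59% of all genes tested. HES1 stood at 35.5, 13.3 and 15.8 TPM (edgeR adjusted p = 0.0161), high in replicate 1 as FABP7 was, and was not called without replicate 1, 2 or 3 (0.9999, 0.321 and 0.0983). HES5 stood at 6.76, 0.72 and 5.66 TPM (edgeR adjusted p = 0.00340), low in replicate 2, the library in which FABP7 was lowest too, and was not called without that replicate (0.9997). In log2 CPM 40.8% of all genes tested were highest in replicate 1 and 25.7% were lowest in replicate 2. Of the 12 factors 5 had their highest TPM in replicate 1, so this pattern was not particular to the NOTCH targets.

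LIF, which the medium contains, acts through LIFR and IL6ST on JAK kinases and STAT3, a route known to switch on GFAP in competent progenitors. Of 15 genes of this pathway 13 were detected, beside 62.2% of all protein-coding genes, with a list median of 3.93 ± 0.61. STAT3 stood at 66.1 ± 6.73 TPM, PIAS3, an inhibitor of STAT3, at 53.0 ± 10.7 TPM and the kinase gene TYK2 at 47.7 ± 11.6 TPM. None of the 15 passed the edgeR test of excess spread. The receptor genes LIFR and IL6ST, named after their values were seen, were detected at 5.75 ± 2.34 and 15.1 ± 5.98 TPM. GFAP was at most 0.61 TPM in these libraries. RNA levels of the pathway's genes do not give its activity, and its part in the GFAP level was not tested.

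Other astrocyte genes split from the 4 undetected markers. Of 22 further astrocyte genes 17 were detected, beside 62.2% of all protein-coding genes. The list median was 4.72 ± 0.10, above that of all protein-coding genes. The highest were ID3, a BMP target, at 769 ± 127 TPM, the glutamine synthetase gene GLUL at 564 ± 27.0 TPM and GJA1 at 178 ± 50.7 TPM. Many of these genes are also active in progenitors, neural crest or mesenchyme. The 5 undetected ones, named after their values were seen, were the glutamate transporter gene SLC1A2, the potassium channel gene KCNJ10, SLC4A4, MLC1 and GJB6, at mean levels from 0 to 0.73 TPM. FGFR3 was the 1 member of this list to pass the test of excess spread, at 1.95, 5.61 and 10.6 TPM (edgeR adjusted p = 0.0261), and was not called without replicate 1, 2 or 3 (0.802, 0.0925 and 0.567). Among the other radial glia genes BCAN passed it, at 6.95, 2.57 and 1.53 TPM (edgeR adjusted p = 0.00379), and was not called without replicate 1 or 3 (0.9999 and 0.277).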

How the data were processed

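The GRCh38 build, RSEM 1.3.1, STAR 2.7.11a and Trim Galore 0.6.10 come from the submitters' processing notes, which give them no order. The sources used here do not name the annotation release. Per the file headers, each library has a deposited RSEM gene table. The deposited expected counts are estimated reads per gene, not normalized, and were rounded to whole numbers for tests. The deposited TPM and the deposited FPKM carry the authors' scaling for effective length and library size, and FPKM served only as an alternative. Transcript lengths in the tables are weighted by estimated isoform abundance.

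The 10 genes and the 18 gene lists were chosen with earlier results of these data known. Replicates were grouped by title. Excess spread was tested in edgeR 4.0.16 (R 4.3.3) after filterByExpr and TMM scaling, with an intercept-only fit at the trended dispersion, with the residual deviance set against a chi-square of 2 degrees of freedom, and Benjamini-Hochberg adjustment over all genes. Since separate cultures are not named, a p-value here refers to the spread of these 3 samples, possibly a technical one. The procedure was tested on simulated data. DESeq2 1.42.0 size factors or dispersion trend, a common dispersion, no filter, a length trend offset (lowess span 0.3) and leaving out replicates were the alternatives. Paralog differences used log2(TPM + 1), a scale that compresses differences of low genes. Protein-coding types came from GENCODE release 29, matched for 92.8% of identifiers, and coordinates and start windows from RefSeq GRCh38.p14. By the naming rule, the 10 genes, the 3 highest genes of each other list, genes called for spread, detected relatives and the 3 nearest patterns could be named. SOX2, PAX6, MITF, PMP2, FABP4, NKX2-2, DCX, COL3A1 and CCDC103 were named after their values were seen. Python 3.11.15, pandas 2.3.3 and scipy 1.17.1 were used.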

Additional observations from a re-analysis of the deposited data

How the results depend on the processing

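Shares of the NFI sum depended on length scaling: in CPM the mean shares were 65.9% for NFIA, 14.4% for NFIB and 19.0% for NFIC, and leaving out a replicate gave 49.3% to 54.7%, 11.4% to 13.03% and 29.9% to 33.5%. The NFIX share of 3.03% became 0.729% in CPM and 1.84% at a fixed length, and leaving out a replicate gave 1.10% (without replicate 2) to 4.23%. The 6 paralog differences kept their sign under a pseudocount of 0.1, CPM, FPKM and each left-out replicate. At a TPM minimum of 5 the detected genes were 3 (NFIA, FABP7 and S100B), and the count stayed at 5 without any 1 replicate. Leaving out a replicate lowered the genes called for excess spread from 271 to between 95 and 117, with fewer samples in the fit and 1 residual degree of freedom, and the other alternatives gave 270 to 332. Of the 12 genes of the other lists called for excess spread, 3 stayed called without replicate 1, 3 without replicate 2 and 5 without replicate 3, and 9 with a common dispersion, and each of the 12 lost its call without at least 1 replicate. None of the 5 genes tested was called under any of these settings, and the adjusted p of FABP7 ranged from 0.267 to 0.9999. With the length trend removed, the replicate 1 deviation of NFIA was 0.13 in place of -0.34. Depth limits HOPX, AQP4, ALDH1L1, NFIX and GFAP, which rest on 0 to 33 counts a library. No paired analysis was possible because the series has 1 group and so no groups to pair by replicate number, while the paralog differences were taken within libraries.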
